A study of Mus musculus with 12 samples.

Results

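The genes described here encode the subunits, activators and assembly factors of the proteasome, the cell's main protease for ubiquitin-tagged proteins. They were chosen by name alone, as every gene whose symbol begins with Psma to Psmg and a number, which gave 51 of the 17920 genes listed. Of these, 49 were among the 13735 genes tested, which reached at least 0.5 FPKM (fragments scaled for transcript length and library depth) in at least 3 of the 12 libraries. Both untested genes, Psma8 (a testis form of an alpha subunit) and Psmb11 (a thymus form of a beta subunit), stayed at or under 0.35 and 0.06 FPKM in every library. Polyadenylated RNA was sequenced from the lungs of male BALB/c mice, a common inbred strain, 6 to 8 weeks old and weighing 20 g. There were 24 mice in 4 groups of 6, and 3 lungs per group were sequenced, 1 library per mouse. One group was the control and another, the lung injury model, received lipopolysaccharide (LPS, the outer-membrane glycolipid of Gram-negative bacteria; 50 µL at 1 µg/µL). Another received bLF, lactoferrin from cow's milk, which binds iron, at 200 mg/kg/day, and the last, called LPS+bLF below, received both. Lungs were taken after 14 days, and neither the route nor the day of the LPS dose is given in the labels. The series title names protection by bLF against LPS-induced acute lung injury as the question.

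The 20S core of the proteasome is a barrel of alpha rings around beta rings, and 3 of its beta subunits, Psmb5, Psmb6 and Psmb7, hold the cutting sites. The 19S cap, made of ATPases (Psmc genes) and other subunits (Psmd genes), recognises, unfolds and feeds in ubiquitin-tagged proteins. In leukocytes, and in other cells exposed to interferon gamma, newly built cores take up Psmb8, Psmb9 and Psmb10 in place of Psmb5, Psmb6 and Psmb7. This form is the immunoproteasome, which makes more of the peptides that fit MHC class I. Psme1 and Psme2 form PA28, a ring-shaped activator that is also interferon-inducible. Those 5 genes are called the immunoproteasome genes below.

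The start regions of 3 genes are shown because they cover the inducible subunit that stood apart with LPS, its neighbour and its constitutive partner. Each is the 250 bases before the start site in RefSeq (GRCm38.p6, the C57BL/6J reference, not BALB/c), read 5′ to 3′ on the gene's own strand. Capitals mark matches, on either strand, to the IRF-type element or an antioxidant-type element (TGACNNNGC). The IRF-type element is given by name only.
Psmb8, chr17:34197945-34198194, plus strand: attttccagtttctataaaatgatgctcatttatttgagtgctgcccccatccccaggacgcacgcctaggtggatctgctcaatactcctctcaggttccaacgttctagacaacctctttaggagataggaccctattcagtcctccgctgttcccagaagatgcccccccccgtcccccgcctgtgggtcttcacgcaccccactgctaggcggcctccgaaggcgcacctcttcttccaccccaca
Psmb9, chr17:34187331-34187580, minus strand: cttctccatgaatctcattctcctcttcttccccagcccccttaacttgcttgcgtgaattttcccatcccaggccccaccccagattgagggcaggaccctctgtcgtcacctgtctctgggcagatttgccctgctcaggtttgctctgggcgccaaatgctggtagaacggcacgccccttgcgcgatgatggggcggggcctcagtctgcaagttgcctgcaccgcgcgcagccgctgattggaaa
Psmb5, chr14:54617996-54618245, minus strand: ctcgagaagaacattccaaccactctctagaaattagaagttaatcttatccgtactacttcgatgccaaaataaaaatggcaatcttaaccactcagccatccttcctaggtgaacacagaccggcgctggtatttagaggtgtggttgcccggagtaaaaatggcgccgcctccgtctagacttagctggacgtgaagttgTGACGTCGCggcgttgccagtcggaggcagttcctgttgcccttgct
The Psmb5 match, TGACGTCGC, begins 47 bases before the start site. The Psmb8 and Psmb9 windows held neither pattern. Psmb9 and Tap1, a subunit of the peptide transporter that loads MHC class I, start 226 bases apart on opposite strands, and Psmb8 starts 10639 bases from Tap1. Start regions were found for 43 of the 51 genes, 47 regions in all. The IRF-type pattern occurred in those of Psmb3, Psmd4 and Psmd9, against 2.98% of all 32851 start regions. The antioxidant-type pattern, bound by NRF2-type factors, occurred in those of Psmb5, Psmb6, Psmc6, Psmd12 and Psmd9, against 10.2% of all. A letter match is a description of the reference and shows no binding in these lungs.

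Library totals ran from 16714327 to 17820645 counts, and proteasome genes took 0.384% to 0.689% of them. LPS replicate 1 stood apart from the other 11: the interquartile range of its log2 differences from the control mean was 1.41 over all genes tested, against 0.25 to 0.65 elsewhere, and 3067 of its genes had no count. The 4 further libraries control replicate 1, bLF replicate 1 and LPS+bLF replicates 2 and 3 were the highest in markers of brown fat, heart or skeletal muscle. Results that LPS replicate 1 changes are given with and without it. Defining lung markers such as Sftpc and Scgb1a1 were above 0 in all libraries, and Scgb1a1 alone took 23.8% of the counts of control replicate 2. The 6-gene pan-leukocyte list (such as Ptprc, the leukocyte antigen CD45) summed to 686 to 1034 FPKM in the 6 LPS-exposed lungs and to 466 to 593 FPKM in the 6 others. In LPS replicate 1 that sum rested on Laptm5, a lysosomal protein of blood cells, which gave 521 of its 792 FPKM. The 5 other genes summed to 271 FPKM there, the lowest of the 12 libraries, against 491 to 847 FPKM in the 5 other LPS-exposed lungs and 344 to 472 FPKM in the unexposed ones. The 5 macrophage markers summed to 142 to 464 FPKM with LPS and 69.1 to 129 FPKM without it, and no gene of either list was at 0. Marco gave 249 of the 464 FPKM of LPS replicate 1, and without it the sums were 141 to 323 FPKM with LPS and 68.3 to 128 FPKM without. Most of those sums was Ctss, at 121 to 285 FPKM with LPS and 48.9 to 106 FPKM without. Ms4a7 also separated exposed from unexposed lungs, while Adgre1 and Csf1r overlapped. Csf1r was lowest in LPS replicate 1 (12.75 FPKM). The 4 neutrophil markers did not separate the lungs, at 254 to 1437.5 FPKM with LPS and 170 to 600 FPKM without. Their highest sum was in LPS replicate 1, and LPS replicates 2 and 3 (254 and 306 FPKM) were below control replicates 2 and 3 (600 and 450 FPKM). In whole lung, more cells of a type and more RNA per cell cannot be told apart.

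Psmb8 was the 1 proteasome gene whose level separated LPS-exposed lungs from all others. This subunit replaces Psmb5 at the chymotrypsin-like cutting site. It read 95.4, 80.3 and 81.1 FPKM in the controls and 119, 133 and 142 FPKM in the LPS lungs. With bLF alone it read 85.1, 106 and 83.5 FPKM, and with LPS+bLF 110.4, 138 and 118 FPKM. Every LPS-exposed library was above every unexposed one, with no overlap. The log2 fold change was 0.68 ± 0.16 (SE, n = 3 per group) for LPS versus control, with edgeR's unadjusted p of 0.00125 and adjusted p of 0.243. Among bLF-fed mice, LPS+bLF versus bLF, a comparison that shares no library with the first, gave 0.45 ± 0.16 (unadjusted p 0.0156, edgeR adjusted p 1.0). Over all 6 exposed against all 6 unexposed lungs, here called the LPS main effect, Psmb8 was higher by 0.57 ± 0.11 on the log2 scale (edgeR unadjusted p 0.000366, adjusted p 0.131). The summed macrophage markers, without Marco mostly Ctss, separated the same 6 libraries from the others. So did the leukocyte sum, which without Laptm5 was lowest of all in LPS replicate 1. The part of these markers in the Psmb8 difference was not tested.

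Across all genes, edgeR's quasi-likelihood test called 0 genes in each of the 7 comparisons (percent called 0), so no proteasome gene passed at an adjusted p under 0.05. At an unadjusted p under 0.05, 5.52% of all tested genes were higher and 1.62% lower in LPS than in control, and 2 of the 49 proteasome genes (Psmb8 and Psmd13) were higher and 0 lower. For the LPS main effect the shares were 4.92% higher and 1.77% lower, and Psmb8 was the 1 proteasome gene. No overlap between the 6 exposed and 6 unexposed lungs, all exposed higher, was seen in 0.75% of tested genes, and the reverse in 0.138%. Psmb8 was the 1 of 49 in the first class and there was none in the second. DESeq2, run as an alternative, called 138 of 13567 genes, 1.02%, both for LPS versus control and for the LPS main effect, and Psmb8 was the 1 proteasome gene in each. Its DESeq2 adjusted p was 0.0039 and 2.3e-04 in turn, where adjusted p over its 21 and 20 alternatives reached 0.889 and 0.447. Without LPS replicate 1, DESeq2 called 1.06% of genes for LPS versus control, with Psmb8 at an adjusted p of 0.0346. For the main effect it then called 1.75%, with Psmb8 (adjusted p 8.5e-04) and Psmb9 (adjusted p 0.028).

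**Figure D1:**
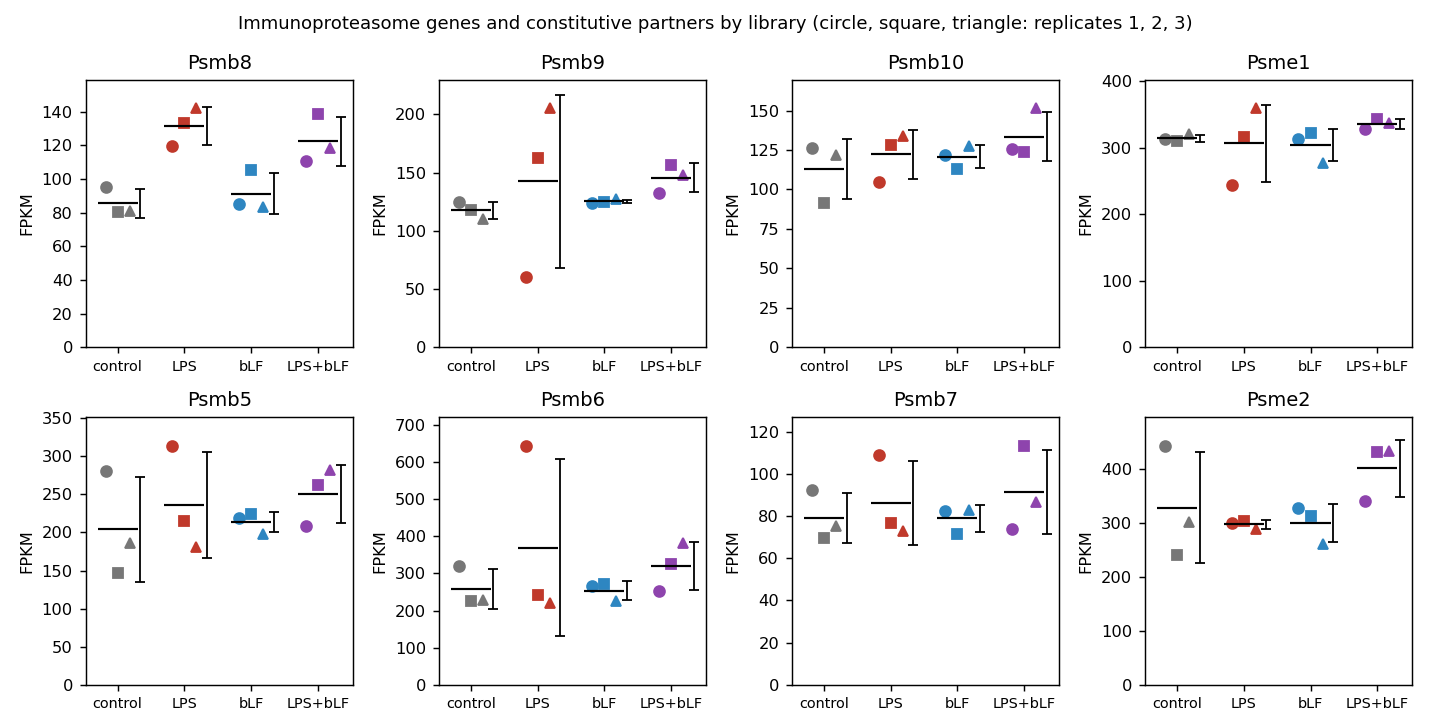
FPKM of the 5 immunoproteasome genes and of Psmb5, Psmb6 and Psmb7 in each of the 12 libraries, by group; symbols mark the replicate number, lines the group mean and bars ± 1 SD over 3 libraries. Psmb8 sits at 110.4 to 142 FPKM in the LPS-exposed lungs and at 80.3 to 106 FPKM in the others, while LPS replicate 1 (circle) is lowest of all for Psmb9 and Psme1 and highest of all for Psmb5 and Psmb6.

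Psmb9, which replaces Psmb6 at the caspase-like site, was steady in unexposed lungs and scattered with LPS. It read 125, 118 and 110.3 FPKM in the controls and 124, 125 and 127 FPKM with bLF. The LPS lungs held both the lowest and the highest values of the series, 60.2, 162 and 205 FPKM in replicates 1, 2 and 3, and the LPS+bLF lungs held 132, 156 and 148 FPKM. In FPKM all 3 LPS+bLF values were above the highest unexposed value. On scaled counts they overlapped with bLF alone. There LPS+bLF replicate 1 was at 0.161 from the control mean on the log2 scale, and bLF replicate 3 at 0.167. LPS versus control gave a log2 fold change of 0.30 ± 0.27 (SE, n = 3; edgeR unadjusted p 0.287, adjusted p 0.705). Without LPS replicate 1 it was 0.59 ± 0.16 (unadjusted p 0.0042, adjusted p 0.332). The LPS main effect was 0.28 ± 0.19 with all libraries (edgeR unadjusted p 0.167, adjusted p 0.728) and 0.43 ± 0.11 without that one (unadjusted p 0.00267, adjusted p 0.196). Over the 12 libraries the Pearson r of log2 CPM (counts scaled to library depth) between Psmb8 and Psmb9 was 0.33, and over the 11 without LPS replicate 1 it was 0.90, both as a description of libraries that share their group.

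Psmb10, which replaces Psmb7 at the trypsin-like site, differed less. Its controls read 126, 91.3 and 122 FPKM and the LPS lungs 105, 128 and 134 FPKM. With bLF it read 122, 113 and 127 FPKM, and with LPS+bLF 126, 124 and 151 FPKM. The FPKM values of the groups overlapped, while on the scaled counts each LPS library was above each control. The log2 fold change for LPS versus control was 0.18 ± 0.14 (edgeR unadjusted p 0.234, adjusted p 0.692), and for the LPS main effect 0.18 ± 0.10 (adjusted p 0.729). On scaled counts, 4.87% of all tested genes had every LPS library above every control and 4.59% had every one below. Of the 49 proteasome genes, Psmb8 and Psmb10 were in the first class and Psmd6, a 19S subunit, in the second.

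Neither PA28 gene separated the LPS-exposed lungs from the others. Psme1 read 313, 310.0 and 320.5 FPKM in the controls, 244, 316 and 359 FPKM in the LPS lungs, 314, 323 and 277 FPKM with bLF and 328, 343 and 338 FPKM with LPS+bLF. LPS versus control was 0.02 ± 0.14 on the log2 scale (edgeR adjusted p 0.968), so the difference was smaller than its standard error. Psme2 read 442, 241 and 300.3 FPKM in the controls, where replicate 1 was the highest library of all 12, and 299.7, 302 and 288 FPKM in the LPS lungs. With bLF it read 327, 311 and 261 FPKM, and with LPS+bLF 339.9, 430.1 and 432 FPKM. The log2 fold change was -0.07 ± 0.19 for LPS versus control (edgeR adjusted p 0.883) and 0.42 ± 0.19 for LPS+bLF versus bLF (unadjusted p 0.0475, adjusted p 1.0). Each LPS+bLF library was above each bLF library, and 2 of these 3 LPS+bLF libraries are among those highest in muscle markers; the part of those markers was not tested. Psme2 is a less certain measurement than the rest, because it has a near-identical copy, Psme2b (0.58 to 2.75 FPKM), with which its reads can be split. The counts of the 2 genes summed to a whole number in 10 of 12 libraries, although most were fractional.

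In the LPS group, replicate 1 held the highest value of all 3 constitutive partners. Psmb5, the standard chymotrypsin-like subunit, read 280.1, 146 and 186 FPKM in the controls and 314, 214 and 180.3 FPKM with LPS. With bLF it read 219, 224 and 198 FPKM, and with LPS+bLF 208, 262 and 282 FPKM. Psmb6, the standard caspase-like subunit, read 320.3, 227 and 228 FPKM in the controls and 644, 242 and 221 FPKM with LPS. With bLF it read 266, 271 and 224 FPKM, and with LPS+bLF 254, 325 and 381 FPKM. In the first LPS lung Psmb6 was thus above every other library. Psmb7, the standard trypsin-like subunit, read 92.6, 69.7 and 75.3 FPKM in the controls, 109, 76.6 and 73.2 FPKM with LPS, 82.4, 71.4 and 83.1 FPKM with bLF and 74.0, 113 and 86.8 FPKM with LPS+bLF. For LPS versus control the log2 fold changes were 0.35 ± 0.29 (Psmb5), 0.68 ± 0.43 (Psmb6) and 0.24 ± 0.26 (Psmb7), with edgeR adjusted p-values of 0.696, 0.685 and 0.729. Without LPS replicate 1 all 3 lay below 0, at -0.08 ± 0.22, -0.20 ± 0.20 and -0.12 ± 0.19.

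The ratio of an inducible subunit to its partner within a library is free of library scaling. Psmb8 over Psmb5 in FPKM was 0.341, 0.548 and 0.436 in the controls and 0.380, 0.621 and 0.787 in the LPS lungs. It was 0.388, 0.471 and 0.421 with bLF and 0.531, 0.528 and 0.419 with LPS+bLF. Exposed and unexposed lungs overlapped, and the mean log2 ratio was 0.30 higher with LPS exposure (exact permutation test within bLF and non-bLF mice, two-sided p 0.16, adjusted p 1.0 over 15 tests). Without LPS replicate 1 that difference was 0.45 (exact permutation p 0.03). Psmb9 over Psmb6 was 0.0936 in LPS replicate 1 and 0.670 and 0.929 in LPS replicates 2 and 3. The 9 other libraries lay between 0.389 and 0.565, so the lowest and the highest 2 ratios of the series were all in the LPS group. Its mean log2 difference for LPS versus control was -0.25 with 3 against 3 libraries (exact permutation p 1.0). Without replicate 1, with 2 against 3, it was 0.78 (exact permutation p 0.1). Neither test can go below 0.1. Psmb10 over Psmb7 ran from 0.959 in LPS replicate 1 to 1.83 in LPS replicate 3, and its mean log2 difference for LPS versus control was 0.01 (exact permutation p 1.0). None of the 15 ratio comparisons passed adjustment.

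**Figure D2:**
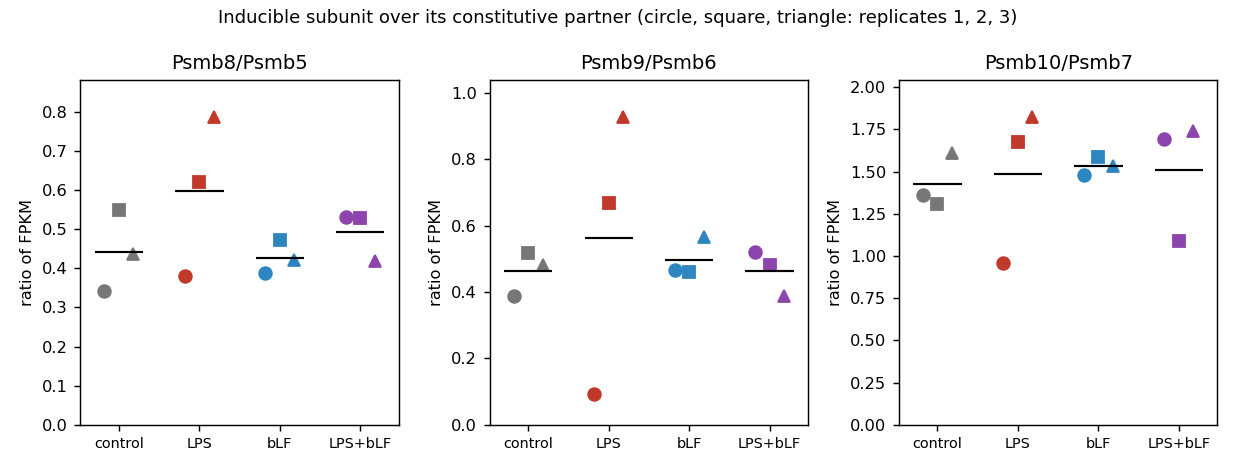
Ratio of the FPKM of each inducible subunit to that of the constitutive subunit it replaces, per library and group, with lines at the group means. LPS replicate 1 (circle) has the lowest Psmb9/Psmb6 ratio, 0.0936, and LPS replicates 2 and 3 have the highest, 0.670 and 0.929.

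Among the other 20S beta subunits, which are structural, Psmb4 had the highest mean level (397 FPKM) and Psmb2 the lowest (83.9 FPKM). Psmb3 and Psmb4 were nearly level without LPS replicate 1, at 357 and 354 FPKM. Psmb4 and Psmb2 were extreme in LPS replicate 1, in opposite directions. Psmb4 reached 876 FPKM there against 247 to 456 FPKM in the 11 others, and Psmb2 was at 19.5 FPKM there against 72.3 to 114 FPKM. The 7 alpha subunits, which form the outer gate of the core, ranged in mean level from 48.2 FPKM (Psma5) to 162 FPKM (Psma7), and they varied little: the ratio of highest to lowest library was between 1.23 and 1.74. Of these 7, 5 were above 0 and 2 below in LPS versus control, with a median log2 fold change of 0.06. Only Psma1 was above 0 without LPS replicate 1, and the median was -0.12. On scaled counts Psma4 and Psma2 were lower in every bLF library than in every control. Psma4 read 169, 135 and 138 FPKM in the controls, 122, 126 and 108 FPKM with bLF and 139.5, 159 and 152 FPKM with LPS+bLF. Its log2 fold change was -0.29 ± 0.14 for bLF versus control (edgeR unadjusted p 0.0576, adjusted p 1.0) and 0.37 ± 0.14 for LPS+bLF versus bLF (unadjusted p 0.0204, adjusted p 1.0). Psma2 was at -0.27 ± 0.15 for bLF versus control (edgeR unadjusted p 0.109, adjusted p 1.0) and at 0.15 ± 0.15 for LPS+bLF versus bLF. On scaled counts 4.57% of tested genes had every bLF library below every control and 4.34% every one above. Psma2, Psma4 and Psmd6 were the 3 of 49 proteasome genes in the first class, and Psmc4 the 1 in the second. Every LPS+bLF library was above every bLF library in 6.1% of tested genes and below in 6.53%. The first class held 6 of 49 proteasome genes and the second 0, and the 6 were Psma1, Psma4, Psmb8, Psme2, its copy Psme2b and Psmg3.

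The 6 ATPases of the 19S cap ranged from 34.4 FPKM (Psmc6) to 196 FPKM (Psmc5). Psmc2 was the most even of them at 56.0 to 67.8 FPKM, while Psmc5 ran from 113 FPKM in control replicate 2 to 364 FPKM in LPS replicate 1. Of the 6, 5 were above 0 in LPS versus control (median log2 fold change 0.21) and none without LPS replicate 1 (median -0.15). The 11 other cap subunits ranged from 13.4 FPKM (Psmd11) to 216 FPKM for Psmd4, a ubiquitin receptor. Psmd14, the cap's deubiquitinase, lay next to Psmd11 at 13.7 FPKM, and their order turned without LPS replicate 1 (13.4 and 13.7 FPKM). Psmd13, a structural subunit, had the second unadjusted call for LPS. It read 128, 69.7 and 91.6 FPKM in the controls, 322, 125 and 85.2 FPKM with LPS, 129, 124 and 91.3 FPKM with bLF and 121, 136 and 177 FPKM with LPS+bLF. Its log2 fold change of 1.05 ± 0.47 for LPS versus control (edgeR unadjusted p 0.0488, adjusted p 0.684) was 0.08 ± 0.25 without replicate 1, so that library set it. Psmd6, another structural subunit, read 36.2, 34.1 and 33.8 FPKM in the controls and 20.3, 31.8 and 30.4 FPKM with LPS. Each LPS library was below each control, by -0.30 ± 0.16 on the log2 scale (edgeR unadjusted p 0.0897, adjusted p 0.684), and by -0.21 ± 0.16 without replicate 1.

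Counted together, the 31 constitutive 20S and 19S subunits differed most in single libraries. On scaled counts LPS replicate 1 was the highest of the 12 libraries for 27 of the 49 proteasome genes and the lowest for 7. In FPKM it was the highest for 21 and the lowest for 13. Control replicate 2 was the lowest for more genes, 13 on scaled counts and 21 in FPKM. For LPS replicate 1, the log2 differences are given next. They ran from -1.97 (Psmb2) to 2.06 (Psmd13) from the control mean over the 31 subunits, with a median of 0.70. In LPS+bLF replicates 2 and 3 the median was 0.29 and 0.20, in control replicate 1 it was 0.12, and in the 8 other libraries it lay between -0.09 and 0.02. In LPS versus control 23 of the 31 were above 0, with a median log2 fold change of 0.24, where the median over all genes tested was -0.04. Without LPS replicate 1, 7 of the 31 were above 0 and 24 below, with a median of -0.09. The inducible Psmb8 and Psmb9 were at 0.64 and 0.59 in that fit, above each of the other 47 genes, of which the highest was at 0.17. In it 3.83% of all tested genes were higher and 1.17% lower at an unadjusted p under 0.05, and these 2 were the proteasome genes among them. For the LPS main effect without that library, the shares were 4.99% and 2.27%, and the proteasome genes were again Psmb8 and Psmb9.

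**Figure D3:**
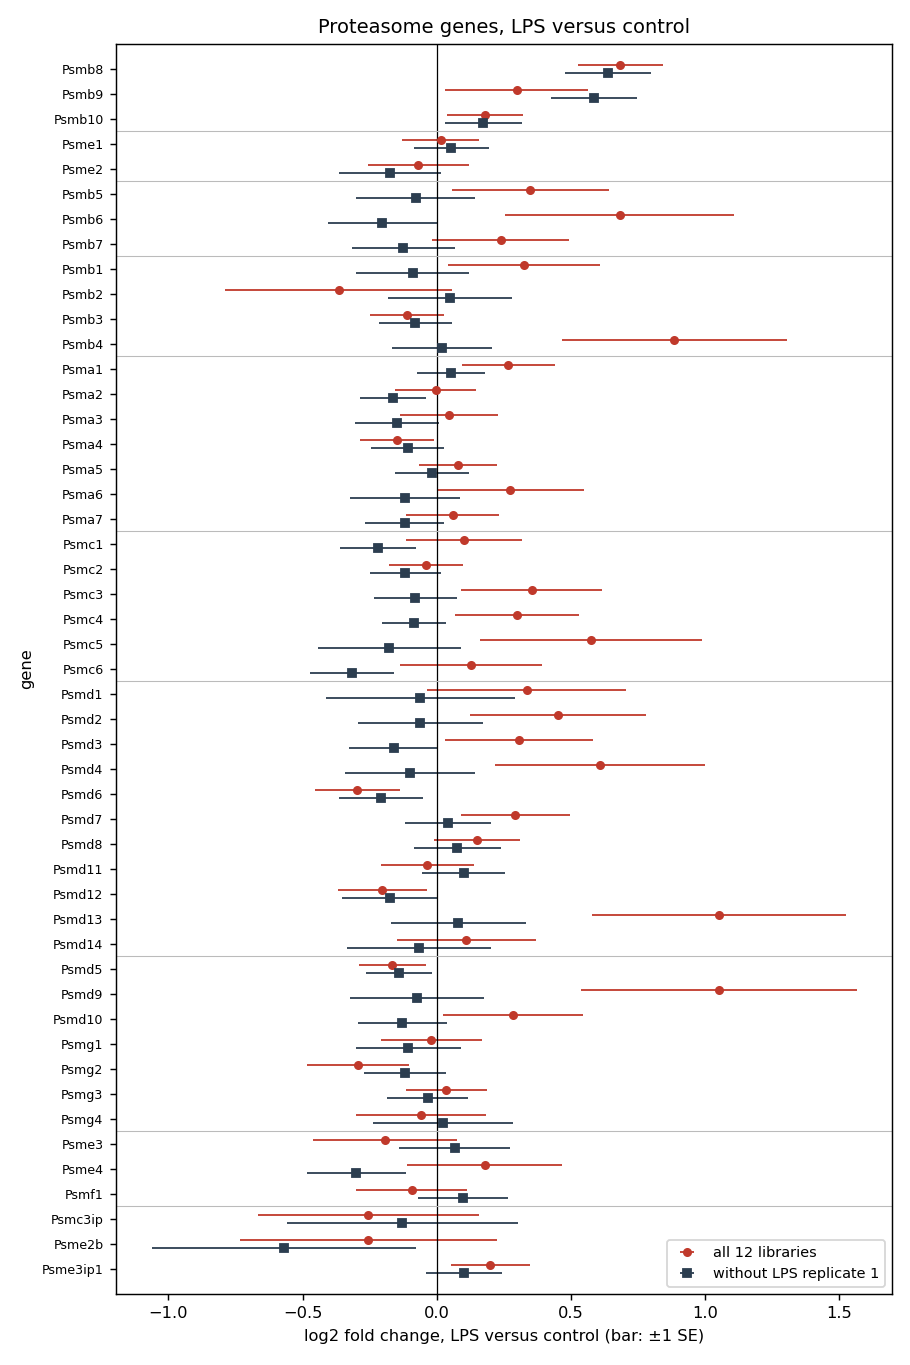
Log2 fold change of LPS versus control for the 49 tested proteasome genes, by role, with all 12 libraries (circles) and without LPS replicate 1 (squares); bars are ± 1 SE. Psmb8 stays near 0.68 and 0.64 in both, Psmb9 moves from 0.30 to 0.59, and Psmb6, Psmb4, Psmd13 and Psmd9 move from 0.68 to 1.05 down to between -0.20 and 0.08.

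The assembly chaperones build the core (Psmg genes) and the base of the cap (Psmd5, Psmd9 and Psmd10). They ranged from 19.7 FPKM (Psmd10) to 54.3 FPKM (Psmg4). In LPS versus control 3 of the 7 were above 0 and 4 below, with none at an unadjusted p under 0.05. Psmg4 (0.02) was the 1 above 0 without LPS replicate 1. Psmd9 had the widest range of all 7, from 13.5 FPKM in control replicate 2 to 76.3 FPKM in LPS replicate 1, and its log2 fold change went from 1.05 to -0.07 without that library. Of the other activators and the inhibitor, Psme3 (a nuclear PA28 form) averaged 17.8 FPKM, Psmf1 (the PI31 inhibitor) 9.38 FPKM and Psme4 (the PA200 activator) 4.61 FPKM. In LPS versus control Psme3 was at -0.19, Psmf1 at -0.09 and Psme4 at 0.18, with edgeR adjusted p-values of 0.773, 0.855 and 0.799. All 3 changed sign without LPS replicate 1, to 0.07, 0.10 and -0.30. Psmc3ip (a recombination factor, 1.54 to 3.57 FPKM) and Psme3ip1 (a PA28-gamma-binding protein, 31.8 to 51.6 FPKM) meet the name pattern without encoding a proteasome subunit, activator, inhibitor or assembly chaperone. Neither had an unadjusted p under 0.05 in any comparison.

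**Figure D4:**
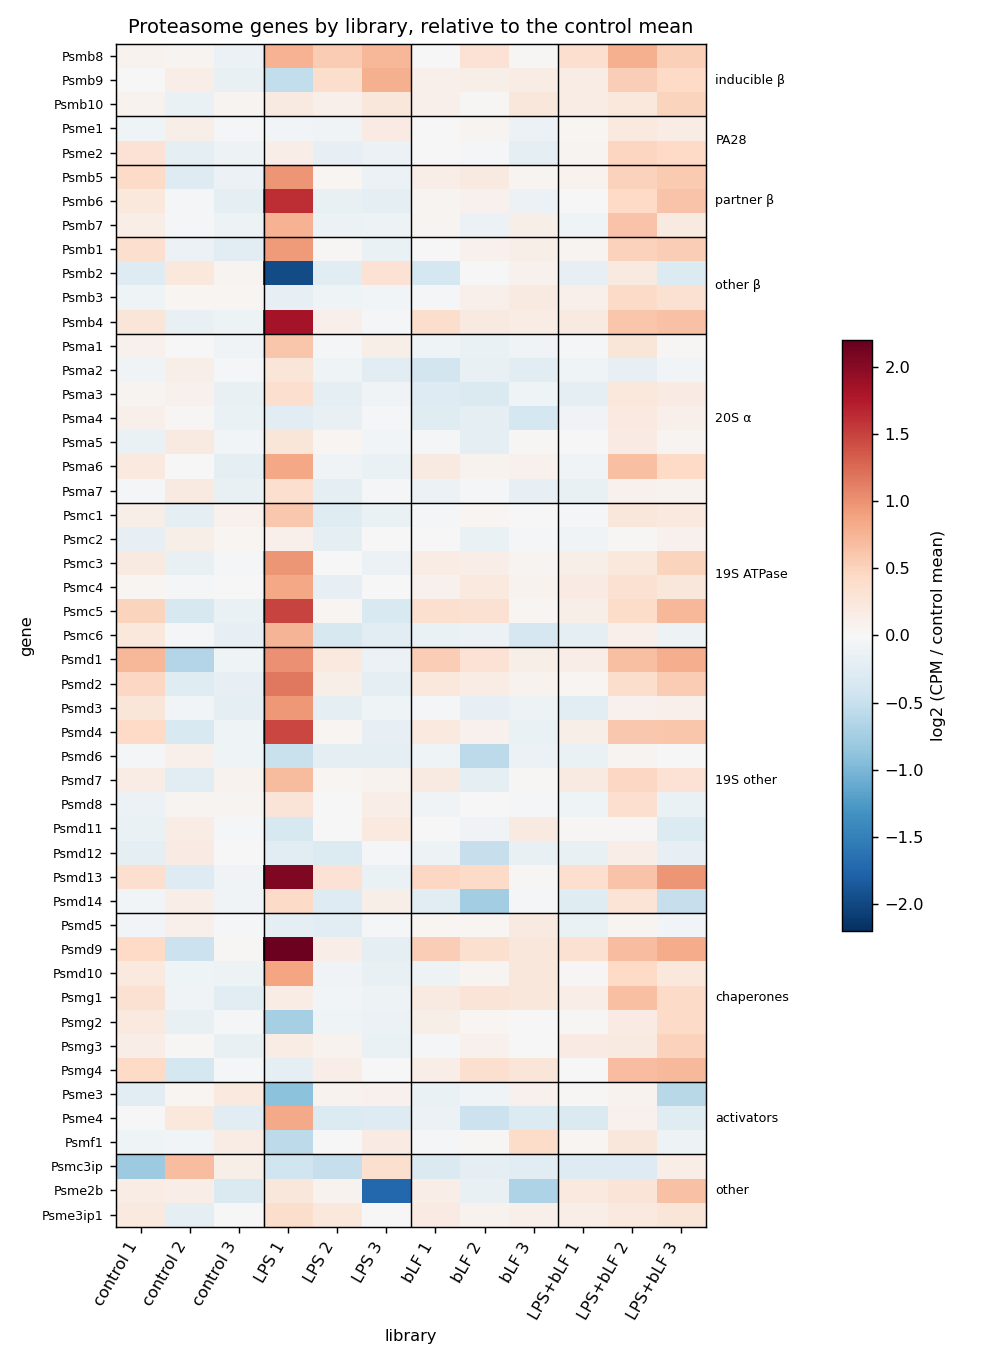
Log2 ratio of scaled CPM to the control mean for the 49 tested proteasome genes (rows, grouped by role) in the 12 libraries (columns, grouped by treatment). LPS replicate 1 is dark across most constitutive subunits, from -1.97 for Psmb2 to 2.06 for Psmd13. The Psmb8 row is red in all 6 LPS-exposed libraries, the lowest at 0.36 (LPS+bLF replicate 1), and also at 0.32 in bLF replicate 2.

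Adding bLF to LPS was compared next. In LPS+bLF versus LPS, 3.27% of tested genes were higher and 3.65% lower at an unadjusted p under 0.05, and 3 of 49 proteasome genes were higher and 0 lower. Psmb3, a structural beta subunit, read 238, 333 and 324 FPKM with LPS and 367, 419 and 408 FPKM with LPS+bLF, without overlap. Its log2 fold change was 0.40 ± 0.14 (edgeR unadjusted p 0.014, adjusted p 0.689). Psmg2, a core chaperone, read 14.9, 30.1 and 27.7 FPKM with LPS and 30.8, 31.9 and 38.8 FPKM with LPS+bLF, for 0.50 ± 0.19 (edgeR unadjusted p 0.0231, adjusted p 0.689), and 0.33 ± 0.15 without LPS replicate 1 (unadjusted p 0.0573). Its partner chaperone Psmg1 read 19.5, 21.9 and 19.8 FPKM with LPS and 23.7, 31.7 and 27.5 FPKM with LPS+bLF, for 0.42 ± 0.19 (edgeR adjusted p 0.689). On scaled counts every LPS+bLF library was above every LPS library for 4.99% of tested genes and below for 5.19%, and for 4 of 49 (Psmb3, Psmd6, Psmg2 and Psmg3) and 0 of 49 proteasome genes. Psmb8 was at -0.12 ± 0.16, Psmb9 at 0.09 ± 0.27 and Psmb10 at 0.12 ± 0.14 (edgeR adjusted p 0.898, 0.965 and 0.876), so none of the 3 inducible subunits differed beyond its error. Psmb9 was at -0.20 ± 0.16 without LPS replicate 1.

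For the constitutive genes the signs in this comparison depended on LPS replicate 1. With it, 14 of the 31 subunits were above 0 and 17 below (median log2 fold change -0.04). Without it 27 were above 0 and 4 below, with a median of 0.28, where all genes tested had a median of 0.01. In that fit 4.74% of tested genes were higher and 4.16% lower at an unadjusted p under 0.05, and 11 of 49 proteasome genes were higher and 0 lower, all with an edgeR adjusted p of 0.516. The 11 were Psma6, Psmb3, Psmb4, Psmb6, Psmc1, Psmc3, Psmc4, Psmd13, Psmd9, Psme2 and Psmg1. LPS+bLF replicates 2 and 3, which were above replicate 1 in FPKM for all 11, are the 2 libraries of the group with the largest sums of skeletal muscle markers (178 and 3058 FPKM against 6.29 FPKM in replicate 1). In replicate 2 Ckm gave 155 of the 178 FPKM, and Tnnt3 was at 4.39 FPKM there, against 672 FPKM in replicate 3. Other tissue markers were high in 1 of these 2 libraries each. Replicate 2 held 2874 FPKM of heart muscle, 469 FPKM of brown fat and 553 FPKM of B cell markers, with B cell markers at most 234 FPKM in any other library. Replicate 3 held 774 FPKM of squamous epithelium markers, against at most 12.1 FPKM elsewhere. In the bLF group, replicate 1 held 156 FPKM of skeletal muscle and 3072 FPKM of heart muscle markers. Its median log2 difference from the control mean over the 31 subunits was -0.01, against 0.29 and 0.20 in LPS+bLF replicates 2 and 3. The part of these markers in the difference was not tested.

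For bLF versus control, 0.714% of tested genes were higher and 0.663% lower at an unadjusted p under 0.05, and 0 of the 49 proteasome genes were in either class. Leaving out LPS replicate 1 changes the estimated spread here, and the shares were then 1.97% and 2.08%, and Psma2 and Psma4 were lower (edgeR unadjusted p 0.0342 and 0.0361, adjusted p 0.959 for both). With all libraries the 31 constitutive subunits split 16 above 0 and 15 below, with log2 fold changes between -0.31 and 0.29. Psmb8 was at 0.12 ± 0.16, Psmb9 at 0.13 ± 0.27 and Psmb10 at 0.13 ± 0.14 (edgeR adjusted p 1.0 for each). In LPS+bLF versus control, 2.63% of tested genes were higher and 2.18% lower at an unadjusted p under 0.05, and Psmb8 (0.57 ± 0.16, unadjusted p 0.0043, edgeR adjusted p 0.832) was the 1 proteasome gene. With LPS replicate 1 left out the shares were 6.31% and 6.08%, and 10 of 49 were higher and 0 lower: Psmb3, Psmb4, Psmb8, Psmb9, Psmb10, Psmc4, Psmd9, Psmd13, Psmg1 and Psmg3. This comparison shares its controls with LPS versus control and with bLF versus control.

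The LPS difference was then set beside itself without and with bLF, in 2 comparisons that share no library. In LPS+bLF versus bLF, 1.65% of tested genes were higher and 1.02% lower at an unadjusted p under 0.05, and the proteasome genes were Psma4, Psmb8 and Psme2, all higher. The shares were 3.66% and 2.53% without LPS replicate 1, with Psma3 (0.32) the fourth. Of the 31 constitutive subunits, 29 were above 0, with a median of 0.19, where all genes tested had a median of 0.01. Of the 49 genes, 32 were above 0 and 5 below in both comparisons, and 12 had opposite signs. With LPS replicate 1 left out of the first comparison, 11 were above 0 and 1 below in both, and 37 had opposite signs. Psmb8, Psmb9 and Psmb10 were above 0 in both comparisons with and without that library. The interaction, which tests whether the LPS difference changed with bLF, had 1.26% of tested genes higher and 1.54% lower at an unadjusted p under 0.05. Psma4 (0.52 ± 0.19) and Psmd6 (0.51 ± 0.22) were the proteasome genes among them, both with an edgeR adjusted p of 1.0, and Psmb8 was at -0.23 ± 0.22 (unadjusted p 0.323). In the fit without LPS replicate 1 the shares were 1.63% and 1.76%, and the proteasome genes were Psma4 (0.49), Psme2 (0.60) and Psmc6 (0.47), while Psmd6 was at 0.43 ± 0.21 (edgeR unadjusted p 0.0668). Every LPS library was below the control mean, and every LPS+bLF library above the bLF mean, for 2.38% of tested genes and for 4 of 49 proteasome genes (Psma4, Psmb3, Psmd6 and Psmd12); the reverse held for 1.86% and for 0 of 49.

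**Figure D5:**
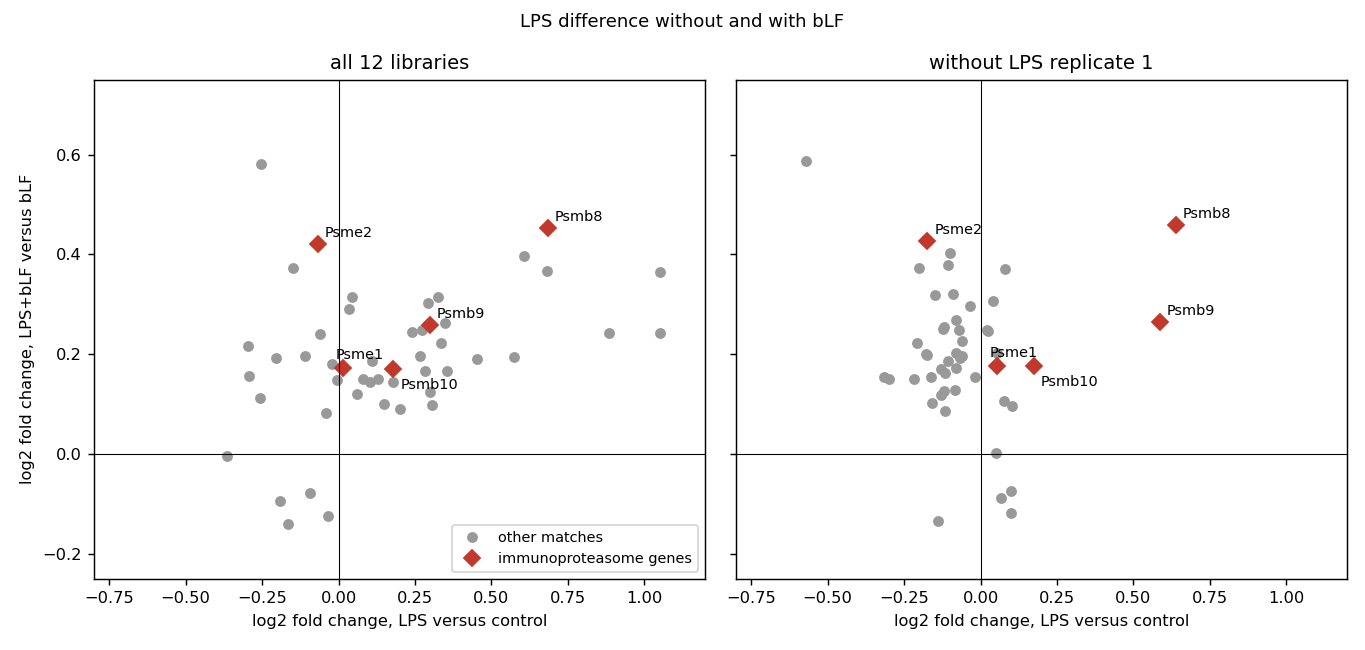
Log2 fold change of LPS versus control (x axis) against LPS+bLF versus bLF (y axis) for the 49 tested proteasome genes, with all 12 libraries (left) and without LPS replicate 1 (right). Psmb8 lies at 0.68 and 0.45 on the left, and on the right most other genes lie to the left of 0.

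Genes that work beside the immunoproteasome were read from lists of pathway members. Of 10 tested genes of peptide loading onto MHC class I, 6 were above 0 and 4 below in LPS versus control, and 2 had an unadjusted p under 0.05, both higher, where 5.52% of all tested genes were higher. When LPS replicate 1 was left out, 9 were above 0 and 1 below, and the 2 were Tap1 and B2m (3.83% of all genes higher). B2m, the light chain of MHC class I, read 63.7 FPKM in LPS replicate 1 and 614 and 881 FPKM in LPS replicates 2 and 3. Its log2 fold change was 0.32 ± 0.61 with all libraries and 0.83 ± 0.30 without replicate 1 (edgeR unadjusted p 0.0205, adjusted p 0.734). Tap1 read 49.6, 22.2 and 33.3 FPKM in the controls, 49.4, 60.6 and 60.7 FPKM with LPS, 48.9, 48.3 and 35.6 FPKM with bLF and 49.4, 59.5 and 57.8 FPKM with LPS+bLF. On scaled counts all 6 exposed lungs were above all 6 others, as in 0.75% of all tested genes. In FPKM they overlapped, with control replicate 1 (49.59) above LPS replicate 1 (49.36) and LPS+bLF replicate 1 (49.37). The log2 fold change of Tap1 was 0.77 ± 0.22 for LPS versus control (edgeR unadjusted p 0.0052, adjusted p 0.435). Tap2, the other transporter subunit, was at 0.79 ± 0.32 (edgeR unadjusted p 0.0325, adjusted p 0.665) and at 0.42 without LPS replicate 1. Nlrc5, the transactivator of MHC class I genes, was at 0.16 ± 0.36 (edgeR adjusted p 0.856), and at 0.49 ± 0.27 without LPS replicate 1.

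The interferon gamma list was divided in the same comparison, with 7 of 14 tested genes above 0 and 7 below, and all 14 above 0 without LPS replicate 1. Cxcl10, an interferon-inducible chemokine, was at 2.13 ± 0.76 and Cd274, the checkpoint ligand PD-L1, at 0.69 ± 0.17 (edgeR unadjusted p 0.0173 and 0.0021, adjusted p 0.625 and 0.306). These 2 were the genes of the list with an unadjusted p under 0.05, both higher. Of all tested genes 5.52% were higher and 1.62% lower. In the fit without that library the genes were Cd274 (0.59) and Ciita (0.71), the MHC class II transactivator. The shares of all tested genes were then 3.83% and 1.17%, and Cxcl10 was at 1.32 ± 0.71 (edgeR unadjusted p 0.0921). Irf1, a transcription factor of the pathway, was at -0.07 ± 0.19 (edgeR adjusted p 0.881), and at 0.12 ± 0.13 without that library. Ifng itself was under the level needed for testing: it read 0.37, 0.36 and 0.06 FPKM in the controls, 0, 0.84 and 0.76 FPKM with LPS, 0.12, 0.18 and 0.35 FPKM with bLF and 0.35, 0.29 and 0.23 FPKM with LPS+bLF. Its lowest and its 2 highest values were in the LPS group, as for Psmb9. The 8 T and NK cell markers summed to 18.5 FPKM in LPS replicate 1 and to 245 and 216 FPKM in LPS replicates 2 and 3, against 60.6 to 108 FPKM in the 9 other libraries. In LPS replicates 2 and 3 most of the sum was Gzma (158 and 129 FPKM) and Nkg7 (62.6 and 59.0 FPKM). Cd4 (1.78 and 3.14 FPKM) and Cd3d (7.92 and 10.2 FPKM) were above every control in replicate 3 only. Cd3e, Cd8a, Klrb1c and Ncr1 were above every control in both. The part of these markers in the Psmb9 values was not tested.

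Of 21 tested proteasome partners outside the name rule, 11 were above 0 and 10 below in LPS versus control, and none had an unadjusted p under 0.05. Leaving out LPS replicate 1, 5 were above 0 and 16 below, and Uchl5, a cap-associated deubiquitinase, was lower (-0.50 ± 0.20, edgeR unadjusted p 0.0294, adjusted p 0.835), where 1.17% of all genes were lower. Pomp, the chaperone that matures both core types, was at 0.23 ± 0.27 (edgeR adjusted p 0.740), and at -0.15 without LPS replicate 1. Nfe2l1, the factor that raises proteasome genes when the proteasome is blocked, was at 0.11 ± 0.18 (edgeR adjusted p 0.796). Neither differed beyond its standard error.

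The genes whose log2 CPM followed each immunoproteasome gene most closely over the 12 libraries were found by Pearson r, as a description of libraries that share group and tissue makeup. For Psmb8 they were Pclaf (r 0.94), a replication factor partner, Bcl2a1d (0.92), Wdfy4 (0.91), Pstpip1 (0.91) and Gpr65 (0.91). For Psmb9 they were Zbp1 (0.95), an interferon-inducible nucleic acid sensor, Ciita (0.93), Serpina10 (0.92), BC035044 (0.92) and Gm2a (0.91). For Psmb10 they were Sphk2 (0.85), Prr13 (0.82), Fam167b (0.82), Ifngr2 (0.81), an interferon gamma receptor chain, and LOC115488166 (0.81). For Psme1 they were Cd5 (0.92), a T cell surface protein, Mif (0.86), Rpl32 (0.83), Rgs14 (0.83) and Nop56 (0.82). For Psme2 they were Washc3 (0.97), Emc8 (0.94), Cox14 (0.94), Ccnh (0.94) and Mtres1 (0.93). No gene appeared in more than 1 of the 5 sets of nearest genes. Between the immunoproteasome genes themselves r ran from 0.07 (Psmb9 and Psme2) to 0.64 (Psmb9 and Psme1). Without LPS replicate 1 it ran from 0.21 (Psmb9 and Psme2) to 0.90 (Psmb8 and Psmb9).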

How the data were processed

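The deposited tables give, per gene and library, an expected count and an FPKM value; the authors' processing used HISAT2 2.1.0, RSEM 1.2.8 and mm10, per the submitters' processing notes. FPKM is the authors' value, scaled for length and depth. Expected counts, as deposited, are fractional for 4.12% to 5.91% of genes and were rounded to whole counts here. Genes were matched by symbol, and the genes, lists and comparisons were chosen with earlier results of these data known. Genes that reached 0.5 FPKM or more in 3 or more of the 12 libraries entered 1 edgeR 4.0.16 quasi-likelihood fit of 4 group means with TMM scaling (8 residual degrees of freedom) in R 4.3.3. Scaled counts (CPM) are from this fit. P-values were adjusted by Benjamini-Hochberg over all tested genes and are two-sided, with calls under 0.05. Replicates are separate mice. Ratios were tested by exact permutation. DESeq2 1.42.0, limma 3.58.1 on log2(FPKM + 1), another scaling, other filters and leaving out each library were alternatives. LPS+bLF versus bLF, and leaving out 5 libraries together, were added after seeing the data. The fits were tested on simulated data.

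Values are given per library for the 5 immunoproteasome genes, their partners and other members with an unadjusted p under 0.05, at most 4 per comparison. The highest and lowest member by mean level is named per role, and 7 pathway genes are named whatever their values; 1 further gene of that rule is not reported here. Psma2, Psma4, Psmd6, Psmd14, B2m, Uchl5, Ciita, Cxcl10, Cd274 and other single members named for their range were chosen after their values were seen. Sequences are from RefSeq, GRCm38.p6. All 51 identifiers matched that table, and the ends of 40 of 47 start regions match a GENCODE transcript start.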

Additional observations from a re-analysis of the deposited data

Results flagged for a closer look

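In 4 proteasome genes, every LPS library was below the control mean and every LPS+bLF library above the bLF mean on scaled log2 counts. That held for 2.38% of all tested genes, and the reverse for 1.86% and for 0 of the 49. The interaction, which tests this difference itself, was 0.52 ± 0.19 for Psma4 (edgeR unadjusted p 0.0216), 0.31 ± 0.19 for Psmb3 (unadjusted p 0.143), 0.40 ± 0.23 for Psmd12 (unadjusted p 0.120) and 0.51 ± 0.22 for Psmd6 (unadjusted p 0.0434). All 4 had an edgeR adjusted p of 1.0, so none passed. These 4 genes were picked by that pattern in the same libraries, so their unadjusted interaction p-values are not separate from the choice. Psma4 and Psmb3 are 20S core subunits, and Psmd12 and Psmd6 belong to the 19S cap. With LPS replicate 1 left out, the interaction was 0.49 for Psma4 (edgeR unadjusted p 0.024), 0.28 for Psmb3, 0.37 for Psmd12 and 0.43 for Psmd6 (unadjusted p 0.0668), with adjusted p-values of 0.986 for all 4. The sign pattern was then seen in 8 of the 49 genes and in 4.79% of all tested genes.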

How the results depend on the processing

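With edgeR, 0 genes were called in the 6 planned comparisons. DESeq2 called 138 genes for LPS versus control and 138 for the LPS main effect. It called 12 when the doubly treated group was compared with control and 7 when it was compared with LPS. For the bLF group against control it called 1, and for the interaction 1. Limma called 2 (LPS versus control) and 3 (LPS main effect), and a filter of a mean of at least 5 FPKM gave 7 (LPS main effect). Leaving out 1 library gave 0 to 25 (LPS versus control), 0 to 2 (LPS+bLF versus LPS) and 0 to 44 (LPS main effect) genes, the highest each time without LPS replicate 1. Leaving out LPS replicate 1 and the 4 libraries highest in fat or muscle genes gave 12 genes for LPS versus control and 2 for the LPS main effect. It gave 2 genes when the bLF group was compared with control and 2 when the doubly treated group was. Psmb8 was then at 0.69 and 0.44 for LPS versus control and the main effect (edgeR unadjusted p 0.00297 and 0.00943). With the replicate number as a replicate block 0 genes were called in every comparison, and Psmb8 was at 0.69 for LPS versus control (edgeR unadjusted p 0.00251). Same-numbered libraries did not regularly deviate together, with correlations from -0.69 to 0.57 over 18 pairs, of which 5 were above 0.1. With 3 libraries a group these cannot decide whether the numbers pair the mice, and the main fit used no pairing.

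Over all alternatives Psmb8 stayed between 0.61 and 0.75 (LPS versus control) and between 0.44 and 0.62 (main effect) on the log2 scale. The other 4 genes and the ratios varied more between alternatives, and some changed sign. For LPS versus control Psme1 was at -0.0202 with upper-quartile scaling, -0.0211 with the 5 FPKM filter and -0.0552 with limma, and ran from -0.0759 to 0.0818 with 1 library left out. Psme2 ran from -0.17 to 0.13 and Psmb9 from -0.022 to 0.59. For bLF versus control Psme2 ran from -0.21 to 0.0806, Psme1 from -0.0863 to 0.0321 and Psmb8 from -0.0126 to 0.18. For LPS+bLF versus LPS Psmb9 ran from -0.20 to 0.38. Without the 5 libraries Psme2 was at 0.0227 (LPS versus control) and 0.0435 (bLF versus control), and for LPS+bLF versus LPS Psmb9 was at -0.43, Psmb10 at -0.0229 and Psme1 at -0.0093. Leaving out 1 library, the log2 ratio differences for LPS versus control ran from -0.88 to 0.78 (Psmb9/Psmb6) and -0.17 to 0.30 (Psmb10/Psmb7). For LPS+bLF versus LPS they ran from -0.51 to 0.0111 (Psmb8/Psmb5), -0.78 to 0.88 (Psmb9/Psmb6) and -0.24 to 0.26 (Psmb10/Psmb7). For the main effect they ran from 0.18 to 0.45 (Psmb8/Psmb5), -0.49 to 0.34 (Psmb9/Psmb6) and -0.11 to 0.12 (Psmb10/Psmb7). The causes of these changes were not tested. With 3 libraries a group, 24 of the 49 proteasome genes lay within their standard error for LPS versus control, 37 for LPS+bLF versus LPS and 41 for bLF versus control.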
